A study of Mus musculus with 3 samples.

Results

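The cells described here are endothelial cells (ECs) of the mouse heart in which the genes *Apln*, *Mest* and *Pcdh17*, taken as a sum, were detected above a threshold, a group labelled activated capillary ECs. They were chosen from measured values, by counts of unique molecular identifiers (UMIs, each standing for 1 captured transcript). A cell with at least 200 detected genes was taken as an EC when *Pecam1*, *Cdh5*, *Kdr* and *Egfl7* together had at least 3 UMIs. This sum also had to exceed 2 times the fibroblast (FB) genes *Col1a1*, *Col1a2* and *Pdgfra*, 2 times the blood cell genes *Ptprc*, *Tyrobp* and *C1qa*, and 2 times the mural genes *Myh11*, *Rgs5* and *Vtn*. An EC was then kept when *Apln*, *Mest* and *Pcdh17* together had at least 3 UMIs, the arterial genes *Gja4*, *Gja5*, *Sema3g* and *Gkn3* together had at most 1, and the endocardial gene *Npr3* had 0. This gate kept 352 of 2800 ECs, out of 6915 cells. Any difference between these cells and the other ECs in the genes of the gate follows from the gate and is no finding.

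Non-cardiomyocytes were isolated from hearts of wild-type C57BL/6JJcl mice, which the study's methods describe as 8-week-old males at surgery. Pressure overload came from transverse aortic constriction (TAC), a ligature that narrows the aortic arch. The healthy phase (TAC 0 weeks), the adaptive hypertrophy phase (2 weeks) and the heart failure phase (12 weeks) were each measured as 1 droplet library. Hearts were dissociated with collagenase, passed through a Percoll gradient and fixed with CellCover, with no sorting for ECs. With a single library for each phase, phase and library cannot be told apart. Age at collection goes with the weeks after surgery and there is no sham library, so age and phase cannot be told apart either. Cells are not replicates, so phases are compared without a test. How many hearts went into a library was not given in the sources used here.

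Apelin, the peptide encoded by *Apln*, signals through the receptor *Aplnr* and is known from sprouting vessels, where it marks endothelial tip cells. In the adult heart, capillary ECs carry the receptor and take up fatty acids for the cardiomyocytes (CMs). *Mest* is an imprinted gene expressed from the paternal allele, and it belongs to a group of imprinted genes that are high in growing tissue and decline after birth. *Pcdh17* encodes a protocadherin, a cell adhesion protein. Of the other label markers, *Fscn1* encodes fascin, which bundles actin filaments in cell protrusions, and *Trp53i11* is a p53-inducible gene. The gate used neither of these last genes.

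The gate genes lie on different chromosomes of GRCm38. *Apln* (ENSMUSG00000037010) is on the minus strand at chrX:48025146-48034853, *Mest* (ENSMUSG00000051855) on the plus strand at chr6:30723547-30748465 and *Pcdh17* (ENSMUSG00000035566) on the plus strand at chr14:84443563-84539002. Because these genes choose the cells together, the 250 bases before their starts are shown from RefSeq (GRCm38.p6), read 5′ to 3′ on the strand of the gene with the dinucleotide CG in capitals. They come from chrX:48034854-48035103, from chr6:30737800-30738049 (the middle of 3 listed *Mest* starts) and from chr14:84443313-84443562.

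Apln: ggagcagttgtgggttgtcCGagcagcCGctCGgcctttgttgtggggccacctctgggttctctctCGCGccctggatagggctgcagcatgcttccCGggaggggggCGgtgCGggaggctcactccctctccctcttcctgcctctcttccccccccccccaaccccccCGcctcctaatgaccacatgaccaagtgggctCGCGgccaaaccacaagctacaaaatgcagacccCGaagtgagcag

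Mest: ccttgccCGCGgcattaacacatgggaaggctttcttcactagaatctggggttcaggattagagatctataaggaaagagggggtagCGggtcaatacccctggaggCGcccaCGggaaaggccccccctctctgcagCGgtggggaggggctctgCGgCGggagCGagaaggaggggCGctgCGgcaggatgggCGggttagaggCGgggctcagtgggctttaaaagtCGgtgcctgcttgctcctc

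Pcdh17: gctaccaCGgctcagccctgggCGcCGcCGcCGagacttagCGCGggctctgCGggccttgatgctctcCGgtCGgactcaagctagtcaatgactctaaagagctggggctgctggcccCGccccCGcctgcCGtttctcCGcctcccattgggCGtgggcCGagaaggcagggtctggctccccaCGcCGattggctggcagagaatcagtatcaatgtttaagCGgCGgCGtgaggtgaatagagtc

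The *Apln*, *Mest* and *Pcdh17* sequences held 12, 14 and 21 CG, where the median over 32851 promoters was 6 and the quartiles were 2 and 16. A CG count is a description of the sequence, since neither methylation nor factor binding was measured. The pentamer ACGTG, searched on both strands as 1 of the forms of the hypoxia response element core in the 300 bases around the start, was in 0 of these 3 promoters. The form GCGTG was not searched, and the *Pcdh17* sequence shown above holds it, so these counts describe ACGTG only. ACGTG was searched in 13 genes with a listed promoter (the gate genes, *Fscn1*, and the genes named below as higher than in other ECs). It was in 1, *Ezh2*, at 246 bases before the start. That is 7.69% of genes, beside 21.8% of the 27025 genes in the table. *Gnb4*, *Ift122*, *Nos2*, *Pou3f1* and *Adamts4* had no listed promoter.

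The gate kept 211 of 1015 ECs at 0 weeks, 134 of 1541 at 2 weeks and 7 of 244 at 12 weeks. These were 20.8% (18.3 to 23.4), 8.70% (7.34 to 10.2) and 2.87% (1.16 to 5.82) of the ECs in each library. Intervals here and below are at 95%, exact Clopper-Pearson for shares, exact Poisson for levels and conditional binomial for ratios, and cover counting error only. The intervals of the 3 libraries did not overlap. The arterial and *Npr3* limits removed few cells that had the 3 gate UMIs, namely 8 of 219, 5 of 139 and 0 of 7.

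The depth of a cell moved with these shares. The median UMI count of the ECs that passed was 4592 at 0 weeks, 3580 at 2 weeks and 2746 at 12 weeks, against 2082, 1553 and 1406 in the other ECs. Of ECs with 1000 up to 2000 UMIs, 4.44%, 2.97% and 1.79% passed at 0, 2 and 12 weeks. Of those with 2000 up to 4000 UMIs it was 18.6%, 12.4% and 3.92%, and of those with at least 4000 UMIs it was 54.5%, 43.3% and 20.0%. The order of the phases was the same in each depth class, but neighbouring intervals overlapped in all of them, and the 12-week classes held 112, 51 and 15 ECs. Under 1000 UMIs, 3 of 317 ECs passed at 2 weeks and 0 of 66 at 12 weeks, and the 0-week library had no such EC.

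After each EC was thinned at random to 1000 UMIs, 3.05% (2.08 to 4.31) passed at 0 weeks. At 2 weeks 2.04% (1.33 to 3.00) passed, and at 12 weeks 0.562% (0.0142 to 3.09). This step left out 0, 317 and 66 shallower ECs. These intervals overlapped, and at 12 weeks 1 thinned cell passed. Over 20 random draws the median share was 3.40% at 0 weeks, with a range of 2.96% to 4.63%, and 1.63% at 2 weeks, with a range of 0.980% to 2.04%. At 12 weeks it was 1.12%, between 0% and 1.69%. The draw reported above thus lay near the low end at 0 weeks and at the high end at 2 weeks. The ranges over draws cover the thinning of the same cells, not the sampling of cells.

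**Figure D1:**
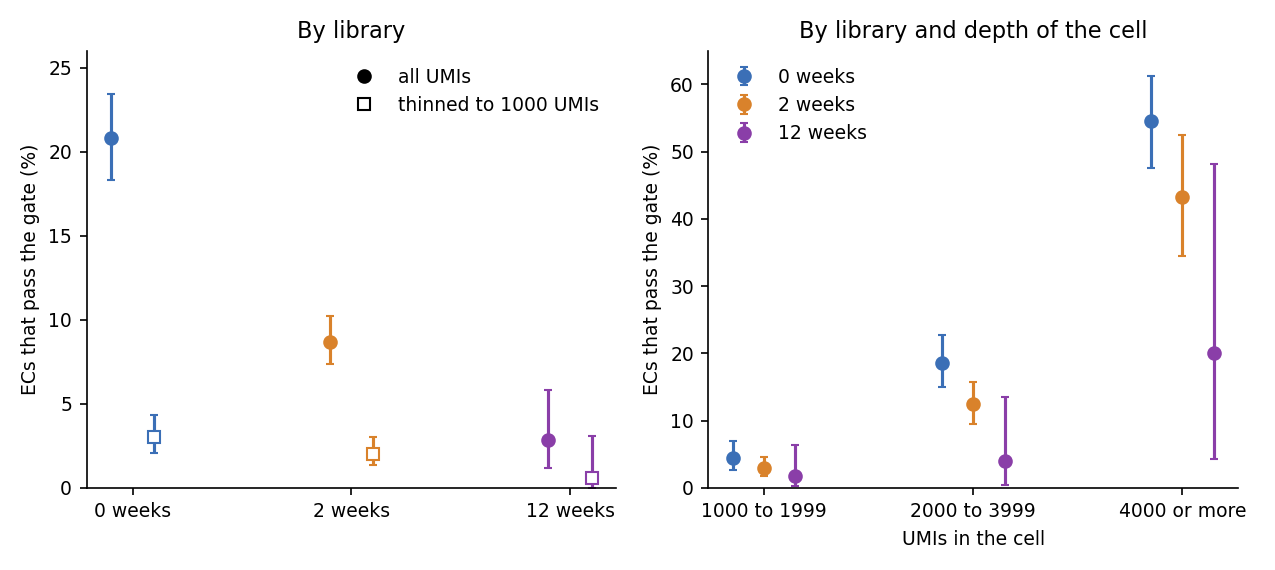
Share of ECs that passed the gate, in percent, with 95% exact binomial intervals. The left panel gives each library with all UMIs (filled circles, from 20.8% at 0 weeks to 2.87% at 12 weeks) and after thinning to 1000 UMIs per cell (open squares, from 3.05% to 0.562%), and the right panel splits the ECs by their own UMI count, where the share climbs with depth in every library.

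A measure that needs no threshold on a cell is the level of its genes over all ECs of a library, in counts per 1e+06 UMIs (CPM). The sum of the 3 genes at 2 weeks was 0.699 (0.649 to 0.754) times that at 0 weeks, and at 12 weeks it was 0.442 (0.357 to 0.540) times. These ratios also carry the depth of the cells. In ECs with 1000 up to 2000 UMIs the sum was at 354, 297 and 252 CPM at 0, 2 and 12 weeks, which lie closer together. With 2000 up to 4000 UMIs it was at 496, 385 and 208 CPM, and with at least 4000 UMIs at 659, 507 and 293 CPM. *Apln* was at 56.4 CPM over all ECs at 0 weeks, 31.0 at 2 weeks and 31.0 at 12 weeks, so that both TAC libraries lay below the healthy library and did not differ from each other beyond their intervals (12 over 2 weeks, 0.998, 0.513 to 1.79). *Mest* was at 158, 100.4 and 47.7 CPM and *Pcdh17* at 326, 246 and 159.7 CPM, and for both genes the interval of each ratio between libraries excluded equality. *Fscn1*, at 266, 256 and 198 CPM, gave a ratio of 0.962 (0.872 to 1.06) at 2 weeks and 0.744 (0.586 to 0.933) at 12 weeks. *Trp53i11*, at 232, 267 and 226 CPM, was 1.15 (1.04 to 1.27) and 0.976 (0.779 to 1.21) times its healthy level. The 3 genes of the gate were thus lower in both TAC libraries, whereas *Fscn1* was lower at 12 weeks only and *Trp53i11* at neither time. Fewer cells of the group and less RNA per cell cannot be told apart in these pooled levels.

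Within the gate, *Pcdh17* gave most of the UMIs. It held 56.5% of the gate UMIs at 0 weeks and 60.0% at 2 weeks, *Mest* held 31.0% and 29.9%, and *Apln* held 12.4% and 10.0%. *Pcdh17* had most UMIs of the 3 genes in 134 of 211 cells at 0 weeks and in 84 of 134 at 2 weeks, *Mest* in 45 and 25, and *Apln* in 11 and 8, with ties in 21 and 17. A UMI of only 1 of the 3 genes was present in 55 of 211 cells at 0 weeks, 40 of 134 at 2 weeks and 3 of 7 at 12 weeks. A UMI of all 3 genes was present in 46 of the 211 cells (21.8%) at 0 weeks, in 17 of 134 (12.7%) at 2 weeks and in 0 of 7 at 12 weeks. Without *Pcdh17* in the sum, 136 of the 211 healthy cells would not have passed, against 60 without *Mest* and 15 without *Apln*.

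*Apln* was at 142 CPM (120.2 to 166) in the 0-week cells, 109 (83.6 to 140.3) in the 2-week cells and 436 (199 to 828, 9 UMIs) in the 12-week cells. The other ECs had 12.1, 14.2 and 10.0 CPM. *Mest* was at 354, 326 and 388 CPM, against 55.7, 51.9 and 30.1 CPM, and *Pcdh17* at 644, 654 and 678 CPM, against 161, 158 and 133 CPM. These gaps were set by the gate. Outside the ECs, 1 of 1160 cells of the FB gate had an *Apln* UMI at 0 weeks (0.0862%, median depth 3076 UMIs), against 25 of 804 other ECs (3.11%, median depth 2082). *Pcdh17* had a UMI in 79 of the 415 healthy mural cells (83.2 CPM, median depth 3036) but in 1.12% of the FB-gate cells and 1.87% of 908 blood cells (median depth 2675), so it was detected in healthy mural cells as well as ECs. In the mural cells of the TAC libraries it had a UMI in 4 of 75 (20.3 CPM) at 2 weeks and 1 of 39 (7.80 CPM) at 12 weeks.

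The label markers that the gate did not use were also higher in the cells that passed. They belong to a label chosen with earlier results of these data known. Their levels are thus a description and no independent support for the group. *Fscn1* (ENSMUSG00000029581, chr5:142960343-142973185) was at 403 CPM (366 to 443) at 0 weeks, 387 (337 to 442) at 2 weeks and 1018 (629.9 to 1555, 21 UMIs) at 12 weeks, against 195, 228 and 155 CPM in the other ECs. The ratios were 2.07 (1.80 to 2.38), 1.70 (1.45 to 1.99) and 6.55 (3.79 to 10.9). *Trp53i11* (ENSMUSG00000068735, chr2:93187548-93201759) was at 352 CPM (317 to 389), 414 (362 to 471) and 436 (199 to 828, 9 UMIs), against 170.0, 235 and 216 CPM. Its ratios were 2.07 (1.78 to 2.40), 1.76 (1.51 to 2.05) and 2.02 (0.895 to 4.02). The intervals of the 2 groups did not overlap for either gene at 0 or 2 weeks.

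**Figure D2:**
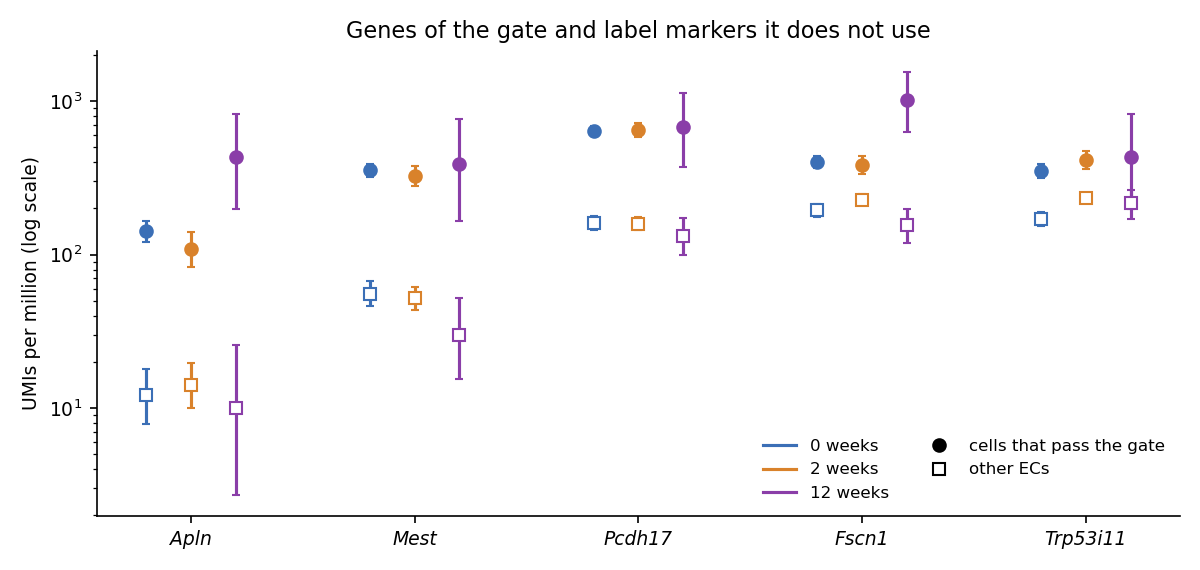
Levels, in CPM on a log axis with 95% Poisson intervals, of the 3 genes of the gate and of *Fscn1* and *Trp53i11*, which the gate did not use, in cells that passed (filled circles) and other ECs (open squares) of each library. *Fscn1* and *Trp53i11* lay about 2-fold apart at 0 weeks (403 against 195 and 352 against 170.0), and the 12-week values rest on 7 cells.

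*Fscn1* was also compared across the number of gate UMIs. Among ECs within the arterial and *Npr3* limits at 0 weeks, *Fscn1* was at 181 CPM in cells with 0 gate UMIs, 247 with 1, 339.9 with 2, 354 with 3, 362 with 4 and 434 with 5 or more. At 2 weeks these values were 231, 269.8, 270.1, 339.7, 321 and 461 CPM. *Trp53i11* went from 153 CPM with 0 gate UMIs over 256 with 2 and 369 with 3 to 361 with 5 or more at 0 weeks, and from 232 over 356 and 362 to 465 at 2 weeks. The step from 2 to 3 gate UMIs was small for *Fscn1* at 0 weeks and for *Trp53i11* at 2 weeks, and larger for *Trp53i11* at 0 weeks and *Fscn1* at 2 weeks. The median depth of the cells went along with the gate UMIs, from 1881 to 5635 UMIs at 0 weeks.

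To group cells at equal UMI totals and without the gene shown, ECs were thinned to 1000 UMIs. The level of each gate gene was then read in cells grouped by the summed UMIs of the other gate genes only. Thinning does not remove the original depth of a cell, with which the summed level of the gate genes climbed. In healthy ECs that level was 354 CPM at 1000 up to 2000 UMIs and 659 CPM at 4000 or more. *Apln* was at 27.0 CPM (16.2 to 42.1) in healthy ECs with 0 UMIs of *Mest* and *Pcdh17*, 68.5 (38.3 to 113) with 1 and 121 (60.3 to 216) with 2 or more. At 2 weeks it was at 20.5, 45.5 and 105 CPM. The ratio between the outer groups was 4.49 (1.93 to 9.92) at 0 weeks and 5.14 (1.95 to 12.3) at 2 weeks. *Mest* gave ratios of 2.78 (1.59 to 4.63) and 3.28 (1.61 to 6.16), and *Pcdh17* gave 1.88 (1.08 to 3.06) and 2.35 (1.11 to 4.40). In both libraries each of the 3 genes was higher where the other gate genes summed to 2 or more UMIs than where they summed to 0. A single gene can reach that sum, and the counts were small (11 and 8 *Apln* UMIs in the highest groups). The 3 genes were joined in the gate with earlier results of these data known. Their joint levels are thus a description and no independent support for the group.

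*Fscn1* and *Trp53i11*, as markers of the label, are likewise given as a description in the same grouping of thinned cells. *Fscn1* was at 210.4, 294 and 409.5 CPM in healthy ECs with 0, 1 and 2 or more gate UMIs, and at 217, 311 and 448 CPM at 2 weeks. *Trp53i11* was at 152, 276 and 257 CPM at 0 weeks, where the upper groups did not differ beyond their intervals, and at 237, 302 and 517 CPM at 2 weeks. In the 12-week library at most 2 thinned cells had 2 or more of the grouping UMIs, too few for such a reading.

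**Figure D3:**
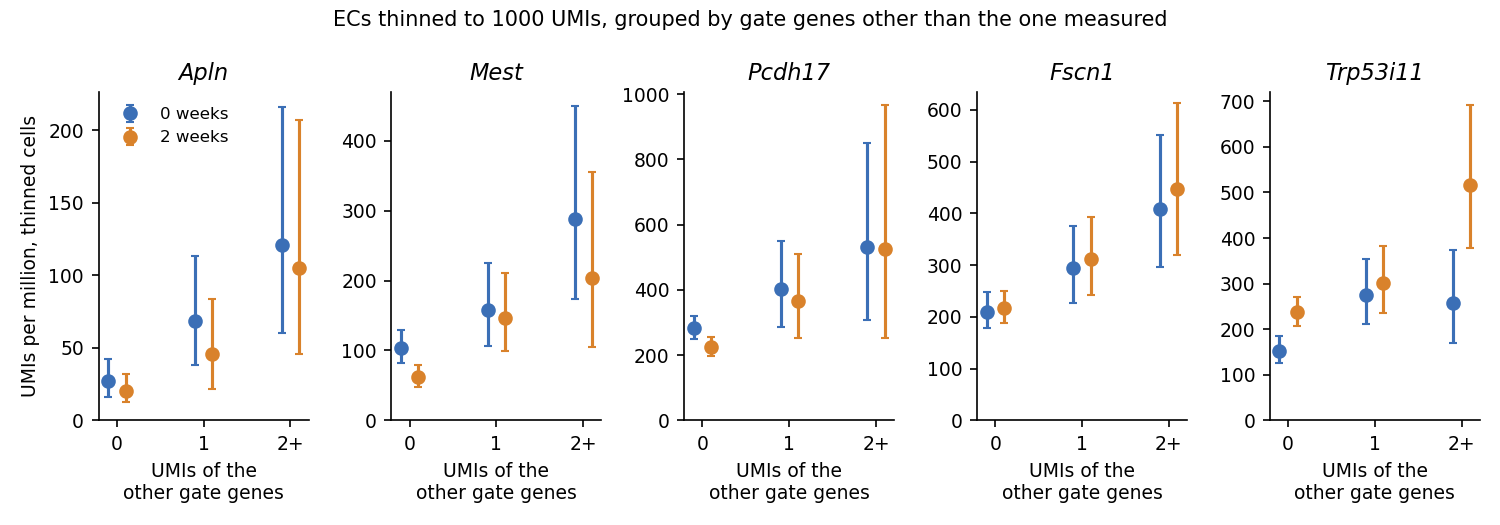
Level of each gene, in CPM with 95% Poisson intervals, in ECs thinned to 1000 UMIs and grouped by the UMIs (0, 1, or 2 and more) of the gate genes other than the gene shown. In the 0-week and 2-week libraries the points climb from left to right for *Apln* (27.0 to 121 and 20.5 to 105), *Mest*, *Pcdh17* and *Fscn1*, while healthy *Trp53i11* levels off.

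The rest of the transcriptome differed little in the upward direction. A gene counted when at least 10 UMIs were seen in the cells that passed, or expected there from the other ECs. Log2 ratios were taken with 10 CPM added to both levels, and a 2-fold difference was the limit. At 0 weeks, 25 of 8409 genes (0.297%) were at least 2-fold higher in the cells that passed and 189 (2.25%) at least 2-fold lower. At 2 weeks these were 14 (0.216%) and 88 (1.36%) of 6483 genes. Of 6437 genes counted in both libraries, 3 (0.0466%) were higher and 40 (0.621%) lower at both times. Within these 6437 genes, the shared genes were 18.8% of the 16 higher at 0 weeks and 27.3% of the 11 higher at 2 weeks. They were 40.8% of the 98 and 45.5% of the 88 lower genes. The median log2 ratio over all these genes was -0.02 at 0 weeks and -0.04 at 2 weeks.

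The 3 higher genes were *Pgf*, *Gnb4* and *Ift122*. *Pgf* (chr12:85166635-85177790) encodes placental growth factor, a ligand of the VEGF receptor *Flt1*. It was at 111 CPM (92.0 to 133), 53.7 (36.2 to 76.7) and 194 (52.8 to 496, 4 UMIs) at 0, 2 and 12 weeks, against 25.2, 12.7 and 22.6 CPM in the other ECs, with ratios of 4.41 (3.16 to 6.23), 4.23 (2.49 to 7.16) and 8.59 (1.93 to 30.8). At 0 weeks 37 cells had a *Pgf* UMI, whereas at 2 weeks 19 of 30 UMIs came from 1 cell, without which the log2 ratio there was 0.39 in place of 1.49. The 4 *Pgf* UMIs at 12 weeks all came from 1 cell. *Gnb4* (chr3:32580332-32616585), a G protein beta subunit, was at 132, 91.3 and 145 CPM, against 54.2, 38.1 and 60.2 CPM, and 90 cells at 0 weeks and 35 at 2 weeks had a UMI. Without the cell with most of its UMIs, its log2 ratio at 2 weeks was 0.96 in place of 1.08, under the 2-fold limit, and against ECs of like depth it was 0.93. *Ift122* (chr6:115853470-115926699), part of the intraflagellar transport machinery of cilia, was at 140.0, 244 and 242 CPM, against 64.4, 105 and 60.2 CPM. Its log2 ratio at 0 weeks was 1.01, and 0.97 without the cell with most of its UMIs.

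The 11 genes next in order lay just under the limit in at least 1 library. *Tmsb10*, a thymosin that binds actin monomers, was the most abundant, at 3744 CPM (3630 to 3862) at 0 weeks, 3646 (3489 to 3808) at 2 weeks and 3150 at 12 weeks, against 1961, 1994 and 1088 CPM. Its ratios were 1.91 (1.83 to 2.00), 1.83 (1.74 to 1.93) and 2.90 (2.20 to 3.76). *Marcksl1*, a membrane-associated actin regulator, was at 339.6 and 276 CPM, against 187 and 138 CPM. *Adm*, which encodes the vasoactive peptide adrenomedullin, was at 158, 127 and 678 CPM, against 81.4, 58.5 and 50.1 CPM, and 12 of its 14 UMIs at 12 weeks lay in 2 of the 7 cells. *Arl4c*, a small GTPase, was at 89.6 and 53.7 CPM, against 38.3 and 23.1 CPM. *Ezh2*, a histone methyltransferase of the Polycomb complex, was at 48.5 and 23.3 CPM, against 21.3 and 8.08 CPM. *Nos2*, the inducible nitric oxide synthase, was at 49.5 and 69.8 CPM, against 19.4 and 35.0 CPM. *Kit*, a receptor tyrosine kinase, was at 28.9 and 21.5 CPM, against 12.1 and 6.92 CPM, the transcription factor gene *Pou3f1* at 35.5 and 34.0 CPM, against 16.0 and 12.3 CPM, and the matrix protease gene *Adamts4* at 95.2 and 64.5 CPM, against 50.9 and 29.2 CPM. The others were *Trp53i11*, given above, and the chemokine gene *Cxcl10*, at 112 and 100.3 CPM, against 55.7 and 53.1 CPM. *Cxcl10* at 2 weeks had 21 of 56 UMIs in 1 cell, without which its log2 ratio was 0.23 in place of 0.81. With the gate set on the rate per UMI its log2 ratios were 0.24 at 0 weeks, in place of 0.89, and -0.42 at 2 weeks, the opposite direction. That setting at 0 weeks gave 0.28 for *Ezh2* (in place of 0.90), 0.21 for *Kit* (0.82), 0.30 for *Pou3f1* (0.81) and 0.31 for *Adamts4* (0.79). At 2 weeks these genes had 1.27, 0.92, 0.87 and 0.66. *Nos2* had 0.45 at 0 weeks (1.02) and 0.97 at 2 weeks (0.83), and *Marcksl1* had 0.54 (0.83) and 0.94 (0.95). *Adm* at 0 weeks had 1.18 (0.88). With 0 UMIs of other lineages allowed, *Kit* had 0.16 at 0 weeks and 0.92 at 2 weeks.

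The 8 lower genes named here are known from large vessels, matrix, endocardium or growth control. *Mgp*, which encodes a matrix protein that inhibits calcification, was at 158 CPM (135 to 183), 39.4 (24.7 to 59.6) and 96.9 (2 UMIs) at 0, 2 and 12 weeks, against 1788, 785 and 3963 CPM in the other ECs. *Eln*, the elastin gene, was at 20.5 and 28.7 CPM, against 228 and 185 CPM. *Fbln5*, an elastic fibre gene of arteries, was at 27.1 and 5.37 CPM, against 165 and 155 CPM. *Fn1*, fibronectin, was at 21.5 and 23.3 CPM, against 138 and 137 CPM. *Edn1*, the endothelin gene, was at 21.5 and 7.16 CPM, against 144 and 111 CPM, and 13 of its 23 UMIs at 0 weeks were in 1 cell. *Clu* was at 13.1 and 25.1 CPM, against 426 and 229 CPM, and *Igf2* at 32.7 and 3.58 CPM, against 218 and 46.2 CPM. *Cytl1*, which is high in the endocardium, was at 3.73 CPM (4 UMIs), against 419.9 CPM, at 0 weeks. At 2 weeks it had 0 UMIs, which allows 5.37 CPM with 3 counts over the group, so it was at least 15.8-fold lower than in the other ECs by that floor. The 95% interval of the ratio reached up to 0.0784.

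The number of lower genes changed with the ECs they were set against. Against the 687 and 1279 other ECs that met the same arterial and *Npr3* limits, 10 genes remained lower in both libraries, all of them among the 40. They were *Mgp*, *Clu*, *Eln*, *Plvap*, *Ccl21a*, *Alpl*, *Fbln5*, *Fbln2*, *Col8a1* and 8430408G22Rik. *Mgp* then had log2 ratios of -1.48 and -1.40 in place of -3.42 and -4.01, and *Igf2* -0.53 and -0.74. The higher genes *Pgf* (1.78 and 1.94) and *Gnb4* (1.11 and 1.01) stayed past the limit, and *Ift122* gave 0.86 and 1.05.

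**Figure D4:**
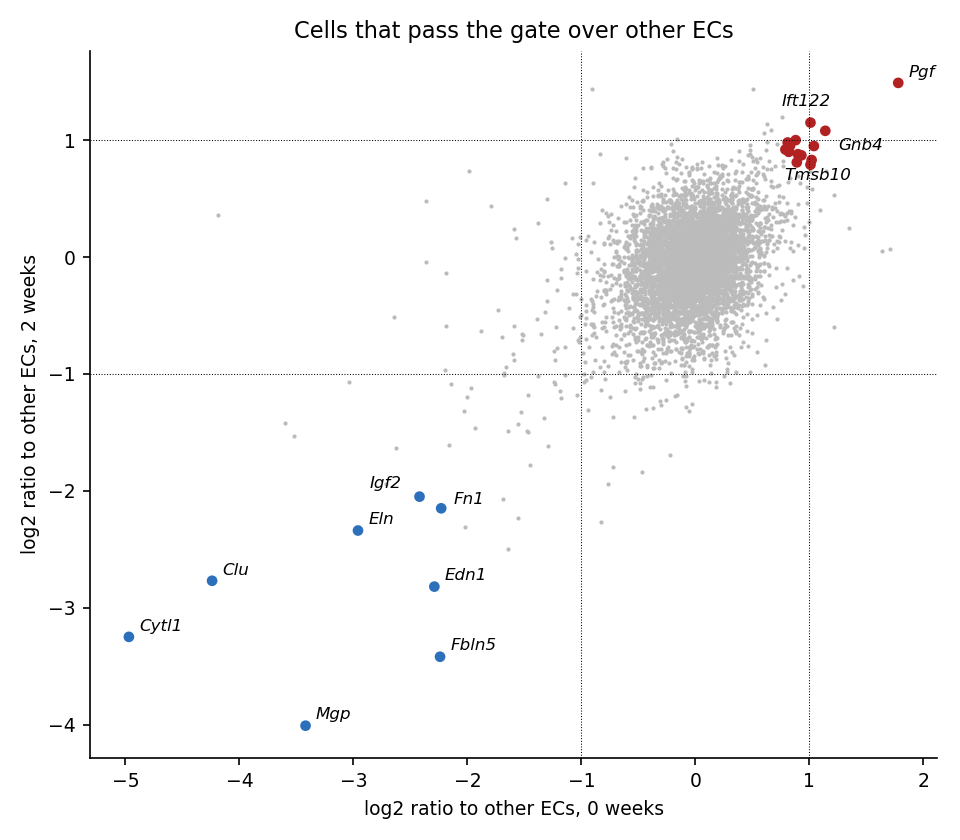
Log2 ratio of the cells that passed over the other ECs, with 10 CPM added, at 0 weeks (x axis) and 2 weeks (y axis), for each counted gene outside the gate (grey), with dotted lines at 2-fold. Of the named genes, *Pgf*, *Gnb4* and *Ift122* (red) lie past both lines at the upper right, and the 8 named lower genes (blue) lie at the lower left, down to *Cytl1* at -4.97 and -3.25.

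The capillary name was checked against capillary genes that the gate did not use. Of 14 such genes counted in both libraries, 0 were past 2-fold in either direction, and the median log2 ratio was -0.02 at 0 weeks and -0.18 at 2 weeks, beside -0.02 and -0.04 over all genes. *Car4*, carbonic anhydrase 4, was at 244 and 270.4 CPM, against 248 and 287 CPM. *Aplnr*, the apelin receptor, was at 226 and 308 CPM, against 192 and 333 CPM. *Fabp4*, a fatty acid binding protein, was at 16839 and 23204 CPM, against 16158 and 24877 CPM. *Rbp7* lay furthest below in both libraries, at 223 and 365 CPM, against 429 and 587 CPM. Of the 14, 7 lay below 0 in both libraries and 2 above. The share of all genes on each side of 0 is not given beside such counts, here or below, so they are read with the medians. The other ECs include arterial and endocardial cells. Against the other ECs within the arterial and *Npr3* limits, *Car4* was at log2 ratios of -0.30 and -0.22 and *Rgcc* at -0.24 and -0.49.

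Many markers of other vessels were lower, partly by the gate. Of the arterial genes outside the gate, 3 of 13 (*Alpl*, *Fbln5* and *Stmn2*) were at least 2-fold lower in both libraries, where 0.621% of all genes were, with medians of -0.75 and -0.88. *Cxcl12* was at 867 and 697 CPM, against 1467 and 1614 CPM. Of the venous genes, 4 of 12 were at least 2-fold lower in both, beside the same 0.621% of all genes, among them *Apoe*, *Bgn* and *Vwf*, with medians of -2.01 at 0 weeks and -0.49 at 2 weeks. Of the 12, 7 were below 0 in both libraries and 0 above, and *Selp* was at 37.6 CPM, against 18.5 CPM, at 2 weeks (ratio 2.04, 1.16 to 3.47). Of its 21 UMIs there, 20 were in 2 cells. The gate does not use venous genes. *Vwf*, von Willebrand factor, was at 16.8 CPM, against 211 CPM at 0 weeks, and at 75.2 CPM, against 168 CPM at 2 weeks. *Ackr1*, a marker of venules, had 0 UMIs in the cells that passed and at most 6.16 CPM in the other ECs of any library. Of 5 endocardial genes counted in both, 3 (*Cytl1*, *Plvap* and *Vwf*) were at least 2-fold lower at both times, again beside 0.621% of all genes. Against ECs within the arterial and *Npr3* limits, of these named genes *Alpl*, *Fbln5* and *Plvap* stayed at least 2-fold lower in both libraries.

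The word activated was set beside genes known from sprouting endothelium. Of 28 counted tip cell and angiogenic genes, 1 (*Pgf*) was at least 2-fold higher in both libraries and 1 (*Plvap*) lower, beside 0.0466% and 0.621% of all genes. Without 1 cell the log2 ratio of *Pgf* at 2 weeks was 0.39, under the limit. Of the 28, 14 lay above 0 with both ratios, 7 below, and the median of the 28 was 0.28 at 0 weeks and 0.26 at 2 weeks. *Esm1*, a tip cell gene, went opposite ways, at 25.2 CPM, against 13.1 CPM at 0 weeks, and at 10.7 CPM (6 UMIs), against 29.2 CPM at 2 weeks. *Angpt2* was at 20.5 and 19.7 CPM, against 18.9 and 13.8 CPM, which did not differ beyond counting error (ratios 1.09, 0.614 to 1.88, and 1.42, 0.653 to 2.86). *Nrp2*, a VEGF co-receptor, was at 462 and 383 CPM, against 255 and 236 CPM, with ratios of 1.81 (1.60 to 2.05) and 1.63 (1.38 to 1.90). *Cd34* was at 927 and 919 CPM, against 566 and 685 CPM. *Pxdn*, a peroxidase that crosslinks collagen IV, was at 167 and 270.4 CPM, against 93.0 and 140.4 CPM, and *Lxn* at 132 and 139.7 CPM, against 66.4 and 83.1 CPM. The VEGF receptor gene *Flt1* (649 and 707 CPM, against 839 and 986 CPM) did not share that difference. *Kdr* was at 736 and 878 CPM, against 651 and 1003 CPM, but the EC rule uses this gene, so its ratio is no finding. Beyond the gate genes, the sprouting genes were thus mostly within 2-fold of the other ECs, and neither *Esm1* nor *Angpt2* was higher in both libraries beyond counting error. The data neither settle nor replace the word activated, and the cells are called here by their gate.

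Most genes of the actin cytoskeleton list had ratios slightly above 1. Of 30 counted, 21 were above 0 in both libraries and 3 below, with medians of 0.18 and 0.17, beside -0.02 and -0.04 over all genes. Of the 30, 0 passed 2-fold in both, beside 0.0466% of all genes higher. The highest were *Fscn1*, *Tmsb10* and *Marcksl1*, and the abundant *Vim* (2439 and 2188 CPM, against 1713 and 1385 CPM) and *Tmsb4x* (14437 and 15718 CPM, against 10971 and 14100 CPM) pointed the same way. Of 21 genes on the basement membrane list, 2 were at least 2-fold lower in both libraries and 0 higher. Over all genes these shares were 0.621% and 0.0466%. The 2 were *Mgp* and *Fn1*, matrix genes not particular to basement membranes. Against ECs within the arterial and *Npr3* limits *Fn1* had log2 ratios of -1.34 and -0.97. The medians of this list were 0.33 and 0.25. Of the 21, 14 were above 0 in both libraries. Among these 14 was *Col4a1*, a chain of collagen IV, at 1147 and 1714 CPM, against 636 and 1310 CPM. *Col15a1* was 2.80-fold (2.22 to 3.56) higher at 0 weeks and 1.19-fold (0.989 to 1.43) at 2 weeks.

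Several genes of the BMP and TGF-beta pathway lay below the other ECs. Of 18 counted, 12 were below 0 in both libraries and 2 above, with medians of -0.54 and -0.45, beside -0.02 and -0.04 over all genes. At least 2-fold lower in both were 3 (*Fstl1*, *Smad6* and *Tgfb2*), where 0.621% of all genes were. *Id1*, a target gene of BMP signaling, was at 402 and 543 CPM, against 750.2 and 1009 CPM, with ratios of 0.536 (0.481 to 0.597) and 0.538 (0.476 to 0.606). *Id3* was at 899 and 1159 CPM, against 1486 and 1936 CPM. The co-receptor *Eng* was at 379.8 and 498 CPM, against 764 and 888 CPM, while the signal mediator *Smad1* was higher, at 156 and 174 CPM, against 92.0 and 97.3 CPM. At 12 weeks *Id1* was at 775 CPM, against 1446 CPM (ratio 0.536, 0.304 to 0.878). Within the arterial and *Npr3* limits *Id1* had log2 ratios of -0.94 and -0.86 and *Id3* -0.71 and -0.74, close to those against all other ECs (-0.88 and -0.88, and -0.72 and -0.74). The calls of *Fstl1* (-1.37 and -0.86), *Smad6* (-0.48 and -1.26) and *Tgfb2* (-1.35 and -0.77) were lost against those ECs.

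Hypoxia and glycolysis genes showed no such shift. Of 24 counted, 0 passed 2-fold in both libraries, 7 were above 0 in both and 8 below, with medians of -0.07 and 0.03. *Adm*, which is on this list, was the exception described above. *Vegfa* was at 23.3 and 19.7 CPM, against 20.8 and 18.1 CPM, and *Ldha* at 593 and 494 CPM, against 557 and 455 CPM. Of the imprinted growth genes other than *Mest*, 1 of 9 (*Igf2*) was at least 2-fold lower in both and 0 were higher, beside 0.621% and 0.0466% of all genes, with medians of -0.25 and -0.18. *H19* had 1 UMI in the healthy cells that passed (0.933 CPM, against 79.4 CPM) and 0 at 2 weeks. Of 22 immediate early and dissociation genes, 0 passed 2-fold, with medians of -0.32 and -0.11. Of 15 fatty acid handling, 12 Notch, 17 adhesion, 16 interferon and 9 antigen presentation genes counted, 0 passed 2-fold in both libraries. Since 0.0466% of all genes were higher and 0.621% lower in both, a count of 0 in lists this short does not set them apart. Of 10 genes of VEGF and angiopoietin ligands and receptors, 1 (*Pgf*) was at least 2-fold higher in both, beside 0.0466% of all genes, and at 2 weeks its log2 ratio was 0.39 without 1 cell.

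Signs of other lineages were compared as whole lists. The EC rule limits FB, blood and mural transcripts in every EC alike. Over 10 FB identity genes the levels summed to 616 CPM in the cells that passed and 1184 CPM in the other ECs at 0 weeks, and to 75.2 and 108 CPM at 2 weeks. The 10 CM genes, which ECs should not express, summed to 974 and 837 CPM at 0 weeks and 619.6 and 611 CPM at 2 weeks. Blood cell genes summed to 183 and 213 CPM at 0 weeks and 129 and 46.2 CPM at 2 weeks, and mural genes to 165 and 165 CPM and 43.0 and 80.0 CPM. The 8 erythroid and platelet genes summed to 244 and 92.0 CPM at 0 weeks, 344 and 372 CPM at 2 weeks and 242 and 5254 CPM at 12 weeks, and 72 of the 84 *Hba-a1* UMIs of the healthy cells that passed were in 1 cell. Of the cells that passed, 0 of 211, 0 of 134 and 0 of 7 were called as doublets, by a caller that marked 0.899%, 0.0896% and 0.631% of all cells, which is few, so doublets may remain. At least 1 healthy cell held B cell transcripts all the same, with 13 *Cd79a*, 10 *Cd79b* and 48 *Cd74* UMIs beside 10 *Pecam1* and 5 *Pcdh17* UMIs among 8996. Another healthy cell held 179 of the 183 *Ccl21a* UMIs of the group, with 9 *Lyve1*, 6 *Mmrn1* and 3 *Prox1* UMIs, which are lymphatic genes. The libraries shared 5, 1 and 3 barcodes in pairs.

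The cells led by *Mest* and by *Pcdh17* were compared with each other. Of 1567 genes counted in both libraries, 2 were at least 2-fold higher in the *Mest*-led cells at both times and 6 lower. The higher genes were *Mcam*, an endothelial adhesion molecule (log2 ratios 1.02 and 1.25), and *Trp53* (1.01 and 1.17). *Stmn1*, a microtubule regulator of dividing cells, had 1.10 and 0.95, and *Gnb4* 0.95 and 1.08. *Slc6a6* (-1.23 and -2.83), *Nr4a2* (-1.12 and -2.36) and *Cxcl10* (-1.07 at 0 weeks) were among the lower genes. They rested on 23 and 5, 12 and 2, and 12 and 0 UMIs in the *Mest*-led cells, and 21 of the 56 *Cxcl10* UMIs of all cells that passed at 2 weeks were in 1 cell. *Fscn1* was somewhat higher in *Mest*-led cells (0.55 and 0.44), as was *Trp53i11* (0.37 and 0.57). In the 11 and 8 *Apln*-led cells *Fscn1* was above the *Pcdh17*-led cells by 0.87 and 1.34 and *Lxn* by 1.45 and 2.55, from 29 and 24 *Fscn1* and 14 and 14 *Lxn* UMIs.

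The 2-week cells were then compared with the 0-week cells of the gate. A gene counted here when at least 10 UMIs were seen in either library or expected in it from the other. Of 8313 genes, 139 (1.67%) were at least 2-fold higher at 2 weeks and 218 (2.62%) lower. The median log2 ratio was -0.01, and it was 0.01 for the same genes in the other ECs. The label markers outside the gate had log2 ratios of -0.06 for *Fscn1* (other ECs 0.22) and 0.23 for *Trp53i11* (0.45). The gate genes, whose level the gate limits from below, had -0.35 for *Apln* (0.13), -0.11 for *Mest* (-0.09) and 0.02 for *Pcdh17* (-0.02).

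Genes of cell division were lower at 2 weeks. Of 25 proliferation genes, 14 were at least 2-fold lower and 0 higher, beside 2.62% of all genes, with a median of -1.22 in the cells that passed and -0.48 in the other ECs. *Top2a*, a topoisomerase of dividing cells, was at 84.0 CPM (90 UMIs) at 0 weeks and 16.1 CPM (9 UMIs) at 2 weeks, against 39.7 and 10.8 CPM in the other ECs. *Ube2c*, which acts at mitotic exit, was at 87.7 and 8.95 CPM, against 25.2 and 11.2 CPM. *Ccnb2*, cyclin B2, had 55 UMIs (51.3 CPM) at 0 weeks and 0 at 2 weeks, at least 9.55-fold lower by the floor of 3 counts over the group, while the other ECs had 18.9 and 10.8 CPM. The 95% interval of its ratio reached up to 0.133. *Prc1* (61.6 and 3.58 CPM) and the long noncoding RNA *Lockd* (68.1 and 3.58 CPM), also among the genes furthest down, went the same way, each with 2 UMIs at 2 weeks. In the other ECs *Prc1* was at 32.4 and 6.54 CPM and *Lockd* at 28.6 and 15.0 CPM. The DNA replication genes *Pcna* (116 and 124 CPM, against 91.1 and 116 CPM) and *Mcm6* (22.4 and 25.1 CPM, against 22.3 and 22.3 CPM) did not. Of the other DNA replication genes on the list, *Rrm2* was among the 14, whereas *Tyms*, *Mcm2*, *Mcm3*, *Mcm5* and *Mcm7* were not.

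These UMIs came from few cells. Summed over 11 mitotic genes, 18 of 211 healthy cells (8.53%, 5.13 to 13.1) had at least 5 UMIs, 147 had 0, and the highest had 86. In the other healthy ECs 24 of 804 (2.99%, 1.92 to 4.41) had at least 5. At 2 weeks this was 2 of 134 (1.49%, 0.181 to 5.29) and 9 of 1407 (0.640%, 0.293 to 1.21). As levels, the 11 genes were at 547 CPM (503 to 593) in the healthy cells that passed and 275 CPM (253 to 299) in the other healthy ECs, but at 71.6 CPM (51.2 to 97.5) and 94.6 CPM (83.2 to 107) at 2 weeks. In the 367 healthy ECs of like depth that did not pass, they were at 317 CPM (286 to 349) and 3.54% (1.90 to 5.98) of cells had 5 UMIs. In the 552 such ECs at 2 weeks they were at 125 CPM (108 to 143), above the cells that passed, and 1.45% (0.628 to 2.84) had 5 UMIs. The higher mitotic level of the cells that passed was thus seen at 0 weeks and not at 2 weeks, and the intervals cover counting error only although the UMIs cluster in single cells.

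The named genes *Gsn*, *Dcn* and *Lyz2* were lower at 2 weeks in the other ECs as well. *Gsn* was at 322 CPM at 0 weeks and 19.7 CPM at 2 weeks, against 357 and 26.2 CPM in the other ECs, *Dcn* at 158 and 17.9 CPM, against 546 and 28.1 CPM, and *Lyz2* at 80.2 and 7.16 CPM, against 94.0 and 12.7 CPM. *Gsn* and *Dcn* are FB genes and *Lyz2* is a macrophage gene, and cells of the FB gate made up 1160 of 3892 cells at 0 weeks and 97 of 2231 at 2 weeks. Whether RNA from such cells had a part in these levels was not tested. *Ccl21a* had 183 UMIs at 0 weeks and 1 at 2 weeks, and without the lymphatic-gene cell described above the log2 ratio was -0.46 in place of -3.94. In the other ECs it was at 1174 and 35.4 CPM. *Cd74*, the MHC class II invariant chain, was at 199 and 34.0 CPM, against 138 and 53.5 CPM, with 48 of its 213 healthy UMIs in the cell with B cell transcripts.

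Of the genes furthest up at 2 weeks, the clock genes *Dbp* and *Nr1d1* were up in all ECs. *Dbp* was at 6.53 and 115 CPM in the cells that passed and 2.91 and 219 CPM in the other ECs, and *Nr1d1* at 1.87 and 69.8 CPM and 1.45 and 99.3 CPM. The time of day of collection was not given in the sources used here. The unnamed loci *Gm10800* (0.933 and 96.7 CPM), *Gm26870* (8.40 and 113 CPM) and *Gm10263* (25.2 and 161 CPM) differed in the same way in the other ECs (log2 ratios 3.47, 2.80 and 1.75). *Il6*, the interleukin 6 gene, was at 14.9 CPM (16 UMIs) and 209.5 CPM (117 UMIs), against 28.1 and 112 CPM, and 22 of 134 cells had an *Il6* UMI at 2 weeks.

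*Igfbp5* and *Selp* were up in few cells. *Igfbp5*, an insulin-like growth factor binding protein, was at 13.1 CPM (14 UMIs) and 211 CPM (118 UMIs), against 409.7 and 162 CPM in the other ECs, and 112 of the 118 UMIs were in 2 cells. *Selp*, P-selectin of venous endothelium, was at 0.933 CPM (1 UMI) and 37.6 CPM (21 UMIs), with 20 UMIs in 2 cells, against 33.4 and 18.5 CPM. With the gate set on the rate per UMI both directions turned, with log2 ratios of -1.19 for *Igfbp5* and -0.24 for *Selp* in place of 3.26 and 2.12. The venous genes *Vwf* (16.8 and 75.2 CPM, 42 UMIs in 8 cells at 2 weeks) and *Vcam1* (30.8 and 89.5 CPM) were also higher, while *Vcam1* was at 244 and 132 CPM in the other ECs. At least 10 UMIs of *Vwf*, *Selp*, *Igfbp5*, *Vcam1* and *Lrg1* together, a set chosen after these values were seen, were present in 2 of 211 cells at 0 weeks and 6 of 134 at 2 weeks. In the other ECs this was so in 64 of 804 and 40 of 1407. Of the 12 counted venous genes, 5 were at least 2-fold higher at 2 weeks and 1 lower, beside 1.67% and 2.62% of all genes, with a median of 0.77 in the cells that passed and -0.66 in the other ECs. For 4 of the 5 the count leaned on few cells. The 2 highest cells of each gene held 20 of 21 *Selp*, 13 of 19 *Lrg1*, 23 of 42 *Vwf* and 24 of 50 *Vcam1* UMIs at 2 weeks, but 7 of 60 for *Il6st*.

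**Figure D5:**
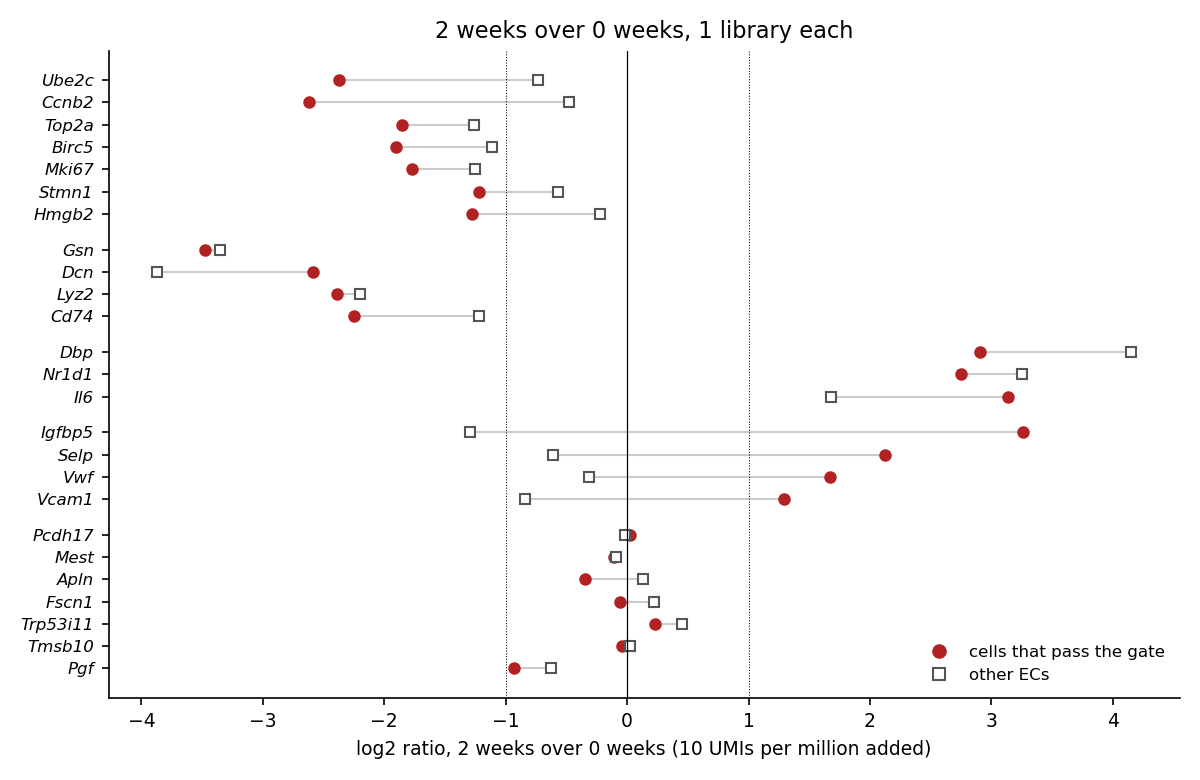
Log2 ratio of 2 weeks over 0 weeks, with 10 CPM added, in the cells that passed the gate (red circles) and in the other ECs (open squares), for genes of cell division, of other lineages, of the clock with *Il6*, of venous ECs, and for the gate genes, *Fscn1*, *Trp53i11*, *Tmsb10* and *Pgf*. The division genes lie further left in the cells that passed (*Ube2c* -2.37 against -0.73), the venous genes point opposite ways, and the last group stays within 1 of 0.

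At 12 weeks the gate held 7 cells with 20637 UMIs in all, from 1125 to 4509 UMIs each. The cells differed in their gate genes. Their UMIs were 5 *Apln* in the first, 2 *Apln* and 5 *Mest* in the second, 1 *Apln* and 2 *Mest* in the third, 1 *Mest* and 3 *Pcdh17* in the fourth, 1 *Apln* and 4 *Pcdh17* in the fifth, and 4 and 3 *Pcdh17* alone in the last pair. *Fscn1* was present in the first 5 of these cells, with 7, 3, 3, 2 and 6 UMIs, and in neither cell with *Pcdh17* alone. *Car4* or *Aplnr* was present in 6 of the 7. The 11 mitotic genes had 1 UMI.

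Only 392 genes counted between 12 and 0 weeks. Among those furthest up were *Gm10020* (678 against 20.5 CPM), *Gm10076* (1841 against 185 CPM) and *Gm10073* (1405 against 147 CPM). They were also higher in the other ECs, with log2 ratios of 3.26, 3.35 and 3.00, beside 4.50, 3.25 and 3.17 in the cells that passed. These unnamed loci may share reads with near-identical copies of other genes, so that their values are uncertain. The genes furthest down were *Kitl* (145 against 556 CPM, ratio 0.261, 0.0538 to 0.768), *Cox7a2* (194 against 581 CPM), the stress gene *Atf3* (533 against 1361 CPM) and *Marcks* (194 against 488 CPM, ratio 0.397, 0.108 to 1.02), from 3, 4, 11 and 4 UMIs. In the other ECs their log2 ratios were -1.13, -0.05, -1.70 and -0.62.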

How the data were processed

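The 3 droplet libraries of heart non-cardiomyocytes (1 for each phase of TAC) were analysed. The deposited files hold whole-number UMI counts of 27998 genes per cell barcode, which the authors made with Cell Ranger 2.0.0 on mm10 per the submitters' processing notes. Barcodes with at least 200 genes were kept, 3892 of 3900, 2231 of 2239 and 792 of 802 at 0, 2 and 12 weeks, from 12309881, 4472377 and 1723863 UMIs. The phases' weeks come from the study's text.

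UMIs were pooled over the cells of a group and divided by all their UMIs (CPM), so a level is a mean weighted by depth. Droplet UMIs also include free RNA, and no correction for it was made. No doublets were removed, and Scrublet in scanpy 1.11.5 was run as a check. Named genes were, outside the gate and without mitochondrial, ribosomal protein and hemoglobin genes, the 14 highest and 8 lowest by the smaller of the 0-week and 2-week log2 ratios, 8 each way for 2 against 0 weeks and 4 each way for 12 against 0 weeks. A gene that this rule names and a list member are not reported here. The members, the 29 gene lists and the rules were chosen with earlier results of these data known. Gene positions are GENCODE vM21 (GRCm38, the same as mm10) by Ensembl identifier, and promoters are from a RefSeq table (GRCm38.p6), in which 13 of 18 symbols matched. The counting step was tested on simulated counts. Python 3.11.15, numpy 2.4.6, scipy 1.17.1, pandas 2.3.3 and matplotlib 3.10.9 were used. The alternatives varied the gate, the depth, the comparison cells, the added CPM and the filters.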

Additional observations from a re-analysis of the deposited data

Results flagged for a closer look

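For 3 genes the 2-week level was at least 2-fold away from the 0-week level in opposite directions in the cells of the *Apln*, *Mest* and *Pcdh17* gate and in the other ECs. *Igfbp5* had a log2 ratio of 3.26 in the gated cells and -1.29 in the other ECs, with 112 of its 118 UMIs at 2 weeks in 2 cells. *Ptn*, the pleiotrophin gene, had 1.26 and -1.08, from 9 UMIs at 2 weeks of which 7 were in 1 cell. *Pthlh*, which encodes parathyroid hormone-like hormone, had 1.61 and -1.23, from 13 UMIs of which 9 were in 1 cell. A single 2-week cell with 11010 UMIs held 37 *Igfbp5*, 13 *Vwf*, 7 *Ptn* and 9 *Pthlh* UMIs beside 4 *Pcdh17* UMIs. With 1 library for each phase, the difference between the gated cells and the other ECs was not tested for any of these genes.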

How the results depend on the processing

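The share of ECs in the gate followed the settings of the gate, while 0 weeks kept the highest share in each. With a minimum of 2 gate UMIs it was 30.4%, 16.0% and 6.56% at 0, 2 and 12 weeks, and with 4 it was 14.2% and 4.93% at 0 and 2 weeks. It was 14.9% at 0 weeks with a gate on the rate per UMI, 17.7% at 0 weeks with 0 UMIs of other lineages allowed, 14.9% and 5.78% at 0 and 2 weeks without *Mest*, and 7.39% and 2.27% without *Pcdh17*. Thinned to 1000 UMIs it was 3.05%, 2.04% and 0.562% with 3 gate UMIs and 10.3%, 7.03% and 1.12% with 2, the latter chosen after seeing the data.

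With all settings as reported, 3 genes were higher and 40 lower than in other ECs at both times, and 139 were higher and 218 lower at 2 than 0 weeks. With 1 CPM added these counts were 11, 61, 511 and 684, and with 50 CPM 0, 11, 31 and 25. The lower genes numbered 10 against ECs within the arterial and *Npr3* limits. Against ECs of like depth with 0 gate UMIs, chosen after seeing the data, 10 genes were higher and 23 lower. The genes higher at 2 weeks numbered 246 with the gate on a rate and 209 as a mean over cells. *Igfbp5* (-1.19) and *Selp* (-0.24) reversed at 2 against 0 weeks with the gate on a rate. Leaving out the gated cell with most UMIs of a gene was also chosen after seeing the data. Of 852 values of named genes over all settings, 757 moved by less than counting error and 93 by more, and of values past 2-fold as reported these 2 changed sign. The 757 include 2 settings that could hardly move a value, with 60 of 60 unmoved in each. The minimum of 20 UMIs does not enter a ratio, and the removal of doublets took out 1 EC at 0 weeks, which had not passed. *Cxcl10* at 2 weeks, under 2-fold at 0.81, was -0.42 with the gate on a rate. Except where a setting itself uses fewer cells or genes, the cause was not tested. No paired analysis was possible because each phase has 1 library, and the 12-week values rest on 7 cells.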
